A study of Mus musculus with 6 samples.

Results

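The genes described here make, package, take up and break down the inhibitory transmitter GABA. They were 5 of the 18560 genes in the count table, chosen by name: Gad1, Gad2, Slc32a1, Slc6a11 and Abat. Their transcripts were followed over 51426 annotated cells of the mouse olfactory bulb, in 18 neuronal and 22 nonneuronal clusters of the authors' annotation and in 6 libraries. All mice were C57BL/6NJ and 14 weeks of age. The Control libraries are labelled only as control. The Naris occlusion group had 1 nostril closed to deprive the bulb of odour input. The Trained group was deprived of water and learned to discriminate odours for a water reward. Occlusion or training lasted 6 weeks. The study names no water deprivation for the other groups, so it cannot be told apart from odour training here. Each group had 2 libraries and each library pooled the bulbs of 3 mice, with Ddx3y and nearly no Xist in replicate 1 of every group and the reverse in replicate 2, so the spread between libraries of a group holds any difference between sexes. The study describes the sequenced controls as naive mice and, in another place, names the open side of occluded mice as the control. Some olfactory epithelium was dissected with the bulbs, so sensory neurons are among the cells.

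GABA is made from glutamate in a single step by glutamate decarboxylase, which exists as the products of the separate genes Gad1 and Gad2. Slc32a1 encodes the vesicular transporter that loads GABA, and glycine, into synaptic vesicles. After release, plasma membrane transporters clear GABA, among them the glial transporter encoded by Slc6a11, and the mitochondrial transaminase encoded by Abat starts its breakdown to succinate. In the olfactory bulb most inhibitory neurons are granule and periglomerular cells, and part of them are replaced during adult life. They release GABA onto the dendrites of the excitatory mitral and tufted cells.

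Gad1 (chr2:70561303-70602014), Gad2 (chr2:22621015-22693877) and Slc32a1 (chr2:158607260-158615747) lie on mouse chromosome 2, Slc6a11 (chr6:114131241-114249886) on chromosome 6 and Abat (chr16:8513429-8621568) on chromosome 16 (RefSeq, GRCm38.p6, the assembly behind mm10). RefSeq promoter windows were at hand for 4 of the 5 members, all on the plus strand, and are shown because Gad1, Gad2 and Slc32a1 were highest in inhibitory neurons and Slc6a11 in astrocytes. Each window is the 250 bases before the transcript start used by the RefSeq promoter table, which for Gad1, Gad2 and Slc32a1 lies downstream of the first base of the gene given above. The windows are chr2:70561879-70562128 for Gad1, chr2:22622077-22622326 for Gad2, chr2:158610508-158610757 for Slc32a1 and chr6:114130991-114131240 for Slc6a11. Capitals mark TAAT, the core bound by many homeodomain factors, and GGGCGG, the GC box, each on either strand.
Gad1: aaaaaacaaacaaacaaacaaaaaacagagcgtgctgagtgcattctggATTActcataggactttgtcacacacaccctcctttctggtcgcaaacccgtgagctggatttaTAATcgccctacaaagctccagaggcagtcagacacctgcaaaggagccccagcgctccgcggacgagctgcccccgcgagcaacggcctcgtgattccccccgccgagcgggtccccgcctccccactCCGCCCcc
Gad2: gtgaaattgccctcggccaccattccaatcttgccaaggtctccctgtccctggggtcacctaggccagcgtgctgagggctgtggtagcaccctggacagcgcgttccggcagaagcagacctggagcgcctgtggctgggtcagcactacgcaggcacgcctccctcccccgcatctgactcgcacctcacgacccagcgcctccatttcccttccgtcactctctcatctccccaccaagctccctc
Slc32a1: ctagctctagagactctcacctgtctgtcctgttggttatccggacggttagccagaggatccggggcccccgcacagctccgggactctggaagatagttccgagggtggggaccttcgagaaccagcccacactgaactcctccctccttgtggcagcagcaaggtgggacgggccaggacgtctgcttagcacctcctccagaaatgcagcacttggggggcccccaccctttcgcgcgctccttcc
Slc6a11: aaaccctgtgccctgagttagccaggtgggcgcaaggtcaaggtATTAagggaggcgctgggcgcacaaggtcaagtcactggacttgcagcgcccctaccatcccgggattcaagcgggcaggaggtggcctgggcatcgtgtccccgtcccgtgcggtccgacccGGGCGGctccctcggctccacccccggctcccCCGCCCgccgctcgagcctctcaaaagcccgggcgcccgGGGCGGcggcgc

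The Gad1 window held 2 TAAT cores, 137 and 201 bases before the start at their first base, and 1 GGGCGG. The Gad2 and Slc32a1 windows held neither motif. The Slc6a11 window held 1 TAAT core and 3 GGGCGG. The E-box CANNTG stood once in the Gad1, Gad2 and Slc6a11 windows and 2 times in that of Slc32a1. Of all 32851 promoter windows of this length, 54.9% held TAAT, 32.7% held GGGCGG and 66.2% held CANNTG. The GC content was 58.0% for Gad1, 64.0% for Gad2, 62.4% for Slc32a1 and 71.2% for Slc6a11, beside a median of 52.4% over all windows.

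The measurement is a count of unique molecular identifiers (UMIs), each standing for 1 captured 3′ end of a transcript and therefore not scaled by gene length. A level is the summed UMI count of a gene in a cluster of a library, per 1000000 UMIs of that cluster and library (CPM). Libraries held 6705 to 10570 annotated cells and 11841160 to 17065083 UMIs, with medians of 1028 to 1724 UMIs per cell and 9.76% to 13.4% mitochondrial UMIs. Trained replicate 1 was the shallowest library per cell. Of 49931 different cell barcode sequences, 1461 occurred in more than 1 library. The summed level of 9 interneuron markers was higher in 10 of the 12 interneuron clusters than in any other cluster outside n04-Immature, the exceptions being n14-GC-7 at 1115 CPM and n18-EPL-IN at 814 CPM. The highest of those other clusters was n13-AstrocyteLike at 1118 CPM, which was placed in neither the interneuron nor the excitatory class. It read Gad1 at 676 ± 170 CPM, above every excitatory cluster in 6 of 6 libraries. The excitatory, sensory, immature and astrocyte lists were each highest in the clusters so named. Gad1, Gad2 and Slc32a1 were also read at low levels in every nonneuronal cluster. These readings, with those of the sensory neurons in n01-OSNs, serve below as the background. Mitochondrial UMIs were kept in the totals for CPM and thinning. They made 40.6% of the UMIs of n01-OSNs, beside 8.87% in n04-Immature and 9.66% in n09-GC-3. Other genes therefore hold a smaller part of the n01-OSNs totals, and comparisons with that cluster carry this difference.

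Gad1 was read in all 12 interneuron clusters and in 11 of them at 580.2 CPM or more, n09-GC-3 alone lying within the range of the excitatory clusters. Its level was highest in the granule cluster n12-GC-6, where the 6 libraries ran from 2053 to 2720 CPM around a median of 2326 CPM (mean 2344 ± 263, SD, n = 6). The granule clusters n11-GC-5 (1588 ± 75.6 CPM) and n10-GC-4 (1440.3 ± 225 CPM) and the periglomerular cluster n05-PGC-2 (1367 ± 182 CPM) followed. The first of these steps held in 6 of 6 libraries, whereas n11-GC-5 exceeded n10-GC-4 in only 4 of 6, so these neighbours did not differ beyond their spread. A middle group from n08-PGC-3 at 1213 ± 256 CPM to n07-GC-2 at 1004 ± 54.7 CPM also overlapped. The periglomerular cluster n02-PGC-1 (631 ± 81.6 CPM) and the granule cluster n03-GC-1 (580.2 ± 77.1 CPM) had the lowest levels that stood above both n17-M/TC-3 and n01-OSNs in 6 of 6 libraries. The olfactory sensory neurons and the mitral and tufted clusters read 261 to 313 CPM, and the nonneuronal clusters 92.3 to 351 CPM, highest in the shallow clusters Astro3, MicroG3 and EC2.

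**Figure D1:**
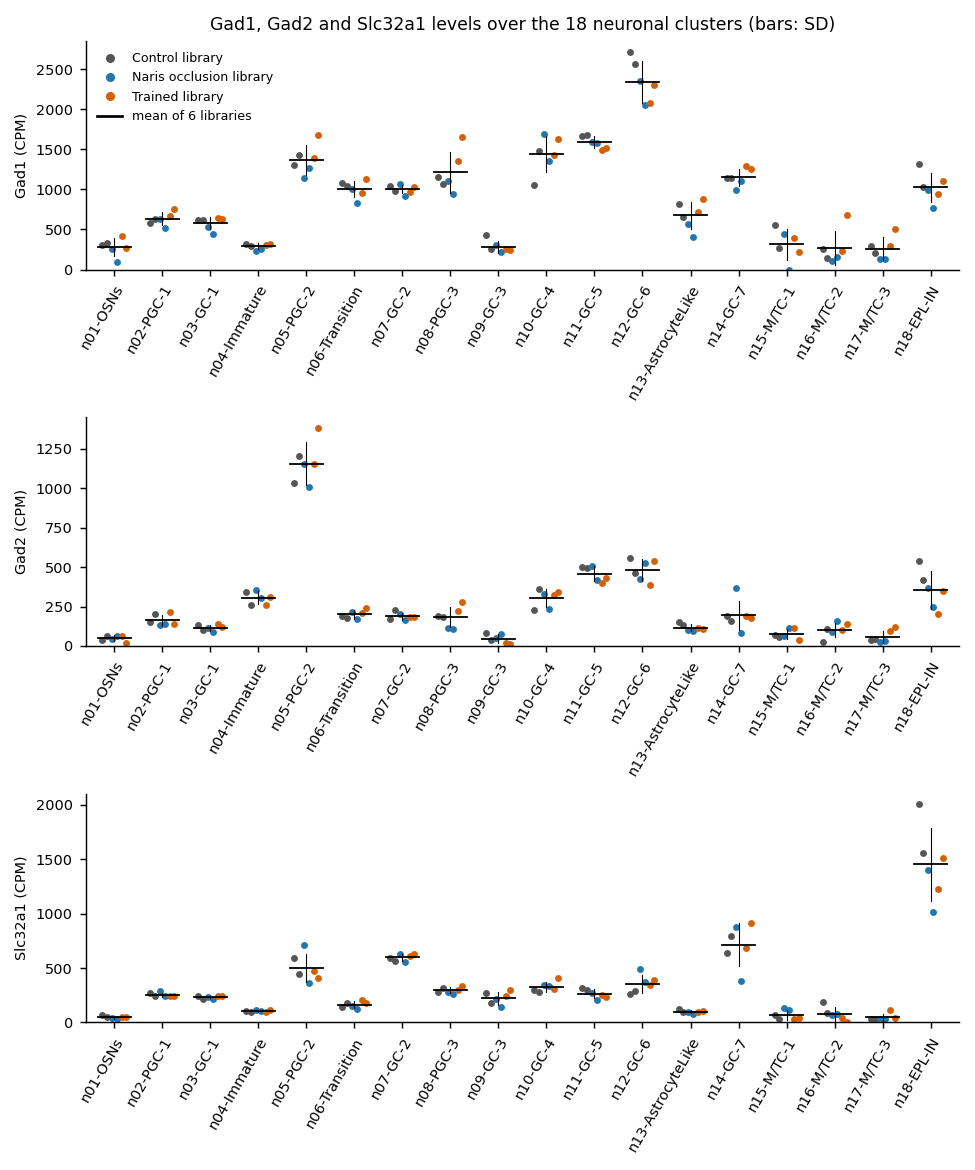
Levels of Gad1, Gad2 and Slc32a1 (CPM, linear axes from 0) in each of the 18 neuronal clusters, with a point per library coloured by group, a line at the mean of 6 libraries and a bar of 1 SD. Gad1 peaks in n12-GC-6 at 2344 CPM, Gad2 in n05-PGC-2 at 1155 CPM and Slc32a1 in n18-EPL-IN at 1454 CPM.

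Gad2 followed another order. The periglomerular cluster n05-PGC-2 was far above the rest, at 1006 to 1381 CPM in the 6 libraries with a median of 1155 CPM. The next clusters, n12-GC-6 (482 ± 69.2 CPM) and n11-GC-5 (457 ± 47.6 CPM), stood below every n05-PGC-2 library and overlapped each other. The immature neurons of n04-Immature had the fifth highest mean of the neuronal clusters, at 307 ± 39.6 CPM, next to n10-GC-4 at 304 ± 56.7 CPM. Excitatory clusters read 49.1 to 102 CPM and nonneuronal clusters 11.9 to 57.7 CPM.

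The balance between the decarboxylase genes separated n04-Immature and n05-PGC-2 from the other interneurons. In the other 11 interneuron clusters Gad1 gave between 74.8% and 87.2% of all Gad1 and Gad2 UMIs. In n04-Immature the share was 48.7 ± 5.21% (SD, n = 6), with 39.9% in the lowest and 53.9% in the highest library, from 1924 Gad1 and 2070 Gad2 UMIs in all. In n05-PGC-2 it was 54.2 ± 2.28%, between 49.7% and 55.9%. The highest library of either cluster lay below the lowest library of every other interneuron cluster, n18-EPL-IN having the lowest of these at 71.0%. The 19 nonneuronal clusters other than astrocytes, read together, gave 83.0 ± 1.34%, and the 12 interneuron clusters together 78.7 ± 0.614%. In the excitatory clusters n15-M/TC-1 and n16-M/TC-2 the share rested on 62 and 69 UMIs and scattered from 0% to 91.7%.

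**Figure D2:**
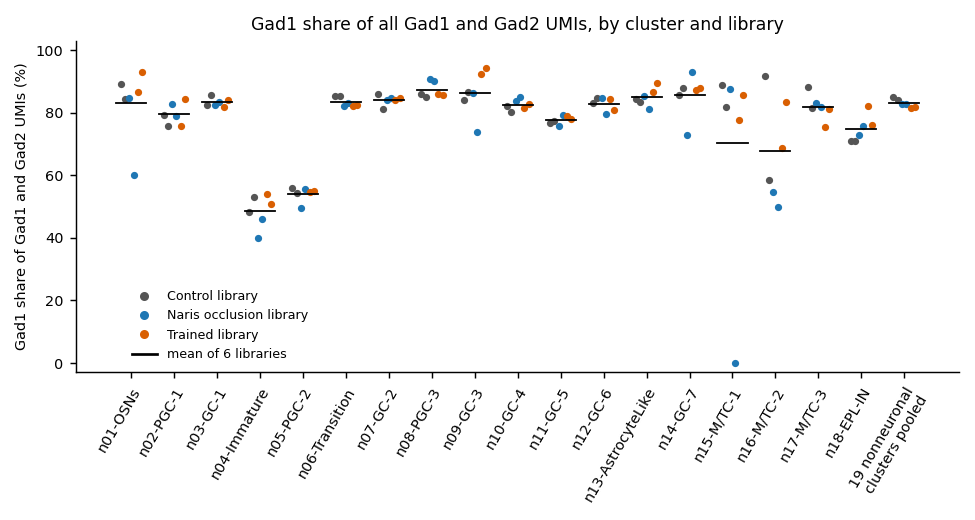
Share of Gad1 among all Gad1 and Gad2 UMIs (percent) in the 18 neuronal clusters and in 19 nonneuronal clusters pooled, with a point per library coloured by group and a line at the mean. The points of n04-Immature and n05-PGC-2 lie between 39.9% and 55.9%, below those of all other interneuron clusters, and the scatter in n15-M/TC-1 and n16-M/TC-2 goes with few UMIs.

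Packaging had its own peak. Slc32a1 was highest in n18-EPL-IN, the external plexiform layer interneurons, where the libraries gave 1018 to 2005 CPM with a median of 1458 CPM from 161 cells and 249 UMIs. This cluster also read the glutamate packaging gene Slc17a7 at 414 ± 184 CPM. The 12 interneuron clusters averaged 58.2 CPM of it, a mean that n18-EPL-IN itself raised, and n17-M/TC-3 read 2038 ± 287 CPM. The source of that reading was not tested. The granule clusters n14-GC-7 (714 ± 196 CPM) and n07-GC-2 (598 ± 32.6 CPM) came next, so clusters of middling Gad1 led in Slc32a1. The Gad1-richest cluster n12-GC-6 had the fifth highest mean, at 356 ± 81.9 CPM. All 12 interneuron clusters lay between 163 and 1454 CPM in mean level, above the excitatory clusters at 45.6 to 77.4 CPM and the nonneuronal clusters at 11.8 to 56.8 CPM.

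Over whole classes, the mean of the interneuron clusters exceeded that of n01-OSNs and the 3 mitral and tufted clusters, called excitatory here, by a log2 ratio of 2.11 ± 0.62 for Gad1, 2.05 ± 0.46 for Gad2 and 2.76 ± 0.49 for Slc32a1 (SD over 6 libraries, computed on CPM + 10). Each ratio was above 0 in 6 of 6 libraries. Since the clusters were built from expression itself, these ratios describe the clusters and carry no test.

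The immature neurons of n04-Immature held less Gad1, Slc32a1 and Abat than the mature clusters on average, but more Gad2 than most of them. The mean over 10 mature adult-born clusters, granule and periglomerular, was set against n04-Immature in each library. Among these clusters, the study describes n05-PGC-2 and n12-GC-6 as formed earlier in life and little replaced in adults. For Gad2 the log2 ratio was 0.10 ± 0.22, positive in 3 of 6 libraries, with mean levels of 329 and 307 CPM. The mature mean was raised by n05-PGC-2, the median of the 10 mature clusters being 191 CPM, and only n05-PGC-2, n12-GC-6 and n11-GC-5 had a higher mean than n04-Immature. For Gad1 it was 1.97 ± 0.14, with 1161 CPM in the mature clusters and 290.1 CPM in the immature cluster. Slc32a1 gave 1.74 ± 0.15 and Abat 1.51 ± 0.18, both positive in 6 of 6 libraries. The transporter Slc6a11, which neurons carried little of, gave 0.61 ± 0.26, at 70.7 and 42.4 CPM, levels on either side of the 44.0 to 62.2 CPM of the nonneuronal clusters other than astrocytes. In the control libraries alone it was 0.30. The Gad1 level of n04-Immature was 1.04 times the excitatory mean, whereas its Gad2 level was 4.28 times the excitatory mean and above every excitatory cluster in 6 of 6 libraries.

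Detection was compared after every cell had been thinned to 500 UMIs, a depth that all cells reached. Gad2 was found in 12.2% of n04-Immature cells (exact 95% interval 11.2% to 13.2%, unthinned 36.8%) and in 2.83% of n01-OSNs (1.97% to 3.94%, unthinned 4.58%), sensory neurons that should lack it. The median depths were 1668 and 808.5 UMIs. Gad1 was found in 13.99% of n04-Immature cells (12.9% to 15.1%, unthinned 36.6%) and 15.5% of n01-OSNs (13.5% to 17.7%, unthinned 25.2%), so at this depth the immature cells were not above the sensory neurons for Gad1. They were above the endothelial cluster EC1, at 7.13% (6.16% to 8.21%, unthinned 20.9%, median depth 1621 UMIs). They were not above the shallow clusters Astro3 (17.02%), MicroG3 (15.46%) and EC2 (15.21%), while the other nonneuronal clusters were lower. In CPM the 6 n04-Immature libraries, at 235 to 323, were above the pooled nonneuronal clusters other than astrocytes, at 86.8 to 163. Their mean of 290.1 CPM was not above that of Astro3 (351 CPM) or MicroG3 (290.2 CPM). In cells of at least 1000 UMIs the means were 287 ± 35.9 CPM in n04-Immature, 248 ± 127 CPM in Astro3 and 177 ± 126 CPM in MicroG3. Thinned to 1000 UMIs, which 3057 n04-Immature and 372 n01-OSNs cells reached, the Gad1 shares were 25.5% and 18.8%. At that depth Astro3 gave 24.32%, MicroG3 19.34% and EC2 16.03%. Intervals and limits of this kind cover counting error only.

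The cluster n09-GC-3 differed from the other granule clusters in holding little of the synthesis genes. Its interneuron markers summed to 3471 ± 654 CPM, within the range of interneuron clusters. Gad1 ran from 216 to 427 CPM with a median of 258 CPM, within the range of the excitatory clusters. It was above the pooled nonneuronal clusters other than astrocytes. Its mean of 285 CPM was not above that of Astro3 (351 CPM) or MicroG3 (290 CPM). Gad2 ran from 14.2 to 80.0 CPM with a median of 44.2 CPM, the lowest mean of any neuronal cluster. Together these rest on 110 Gad1 and 19 Gad2 UMIs in 273 cells. Slc32a1 nevertheless read 140 to 298 CPM with a median of 225 CPM, above every excitatory cluster in 6 of 6 libraries. At 500 UMIs per cell, Slc32a1 was found in 10.6% of n09-GC-3 cells (7.23% to 14.9%, unthinned 25.6%) and in 2.08% of n01-OSNs (1.35% to 3.06%, unthinned 4.92%). Gad1 was found in 14.7% (10.7% to 19.4%, unthinned 32.2%), no more than in n01-OSNs. At 1000 UMIs, which 176 cells reached, the share was 27.3% beside 18.8% in n01-OSNs, its interval again not lying wholly above theirs. The median depth of n09-GC-3 was 1291 UMIs. Counting cells of at least 1000 UMIs alone, n09-GC-3 read Gad1 at 285 ± 62.7 CPM, n17-M/TC-3 at 207 ± 185 CPM and n01-OSNs at 206 ± 64.4 CPM. Astro3 then read 248 ± 127 CPM and MicroG3 177 ± 126 CPM, with 16 and 19 cells in their smallest libraries.

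Over the 17 other neuronal clusters, the thinned share lay wholly above the n01-OSNs interval in 12 for Gad1, 12 for Gad2, 15 for Slc32a1, 10 for Abat and 0 for Slc6a11. At 1000 UMIs the counts were 13, 12, 13, 7 and 0 in that order, with n04-Immature above n01-OSNs for Gad1, and another random draw at 500 UMIs gave 14 for Slc32a1. At 500 UMIs the clusters not above it for Gad1 were n04-Immature, n09-GC-3 and the 3 mitral and tufted clusters. For Gad2 they were n03-GC-1, n09-GC-3 and the 3 mitral and tufted clusters.

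The transporter gene Slc6a11 was highest in the astrocyte clusters Astro1 and Astro3. In Astro1 the libraries ran from 2893 to 3389 CPM with a median of 3105 CPM (mean 3113 ± 170, SD, n = 6), from 19269 UMIs in 3130 cells. Astro3 held 1447 ± 197 CPM and Astro2 540.0 ± 178 CPM, and the order Astro1, Astro3, Astro2 held in 6 of 6 libraries. The endothelial cluster EC2 read 350.3 ± 118 CPM, against 48.7 ± 8.55 CPM in EC1, and no other cluster exceeded 166 CPM. In cells of at least 1000 UMIs, EC2 read 554 ± 217 CPM and Astro2 515 ± 175 CPM, so the order of these neighbours turned, with 16 EC2 cells in the smallest library. Thinned to 500 UMIs, 75.2% of Astro1 cells (73.6% to 76.7%, unthinned 95.7%), 44.8% of Astro3 cells (42.4% to 47.1%, unthinned 56.3%) and 24.7% of Astro2 cells (20.2% to 29.7%, unthinned 51.2%) held Slc6a11. In EC2 the share was 7.74% (6.25% to 9.46%, unthinned 11.6%) at a median depth of 750.5 UMIs, so most EC2 cells held no Slc6a11 UMI. In the microglia of MicroG1, which should lack it, the share was 2.03% (1.16% to 3.27%, unthinned 8.73%), with median depths of 1852, 708.5, 1860 and 2336 UMIs in that order. The 3 astrocyte clusters exceeded the interneurons by a log2 ratio of 4.39 ± 0.20. Gad1, Gad2 and Slc32a1 ran the other way, at −2.45 ± 0.28, −2.85 ± 0.26 and −3.44 ± 0.11. In neurons Slc6a11 was lower in interneurons than in excitatory clusters by a log2 ratio of −0.55 ± 0.34, negative in 6 of 6 libraries, at 72.4 and 114 CPM.

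**Figure D3:**
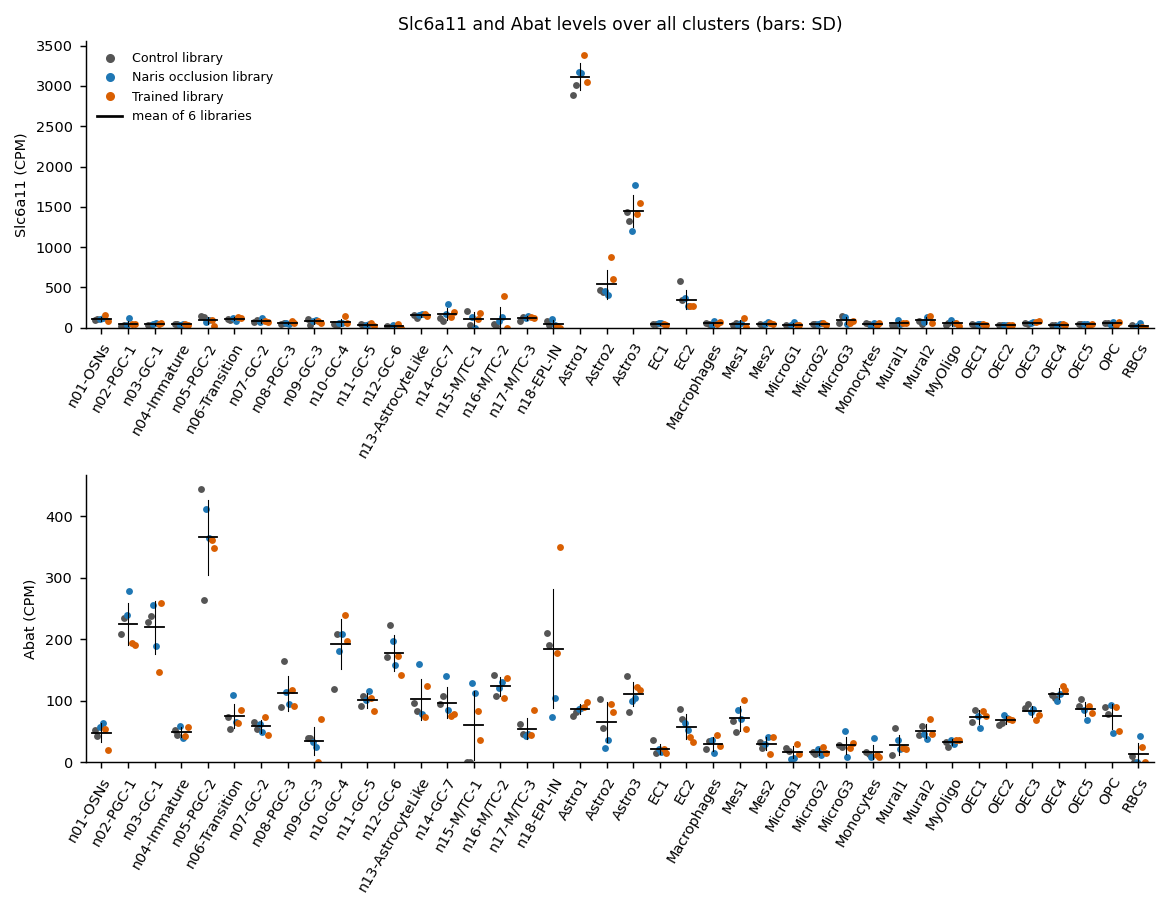
Levels of Slc6a11 and Abat (CPM, linear axes from 0) in all 40 clusters, neuronal clusters first, with a point per library coloured by group, a line at the mean and a bar of 1 SD. Slc6a11 stands out in Astro1, Astro3, Astro2 and EC2, at 3113, 1447, 540.0 and 350.3 CPM, with a Slc6a11 UMI in 11.6% of EC2 cells. Abat is highest in n05-PGC-2 and spread over neurons, astrocytes, ensheathing cells, OPC and Mes1.

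Abat, the breakdown gene, was read in neurons, astrocytes, ensheathing cells, oligodendrocyte precursors and the mesenchymal cluster Mes1. In cells of at least 1000 UMIs it read 71.8 ± 21.4 CPM in OPC, 68.4 ± 22.5 CPM in Mes1 and 64.8 ± 32.0 CPM in Astro2. It was highest in n05-PGC-2, at 264 to 444 CPM with a median of 362 CPM, followed by n02-PGC-1 (224 ± 33.7 CPM), n03-GC-1 (219 ± 43.6 CPM) and n10-GC-4 (192 ± 40.7 CPM). Only the first step in this order held in 6 of 6 libraries. The granule cluster n07-GC-2 (58.4 ± 10.7 CPM) and n04-Immature (49.6 ± 7.98 CPM) held little, and n09-GC-3 was lowest at 34.7 ± 23.1 CPM, with 14 UMIs in all and none in 1 library. Outside neurons, Abat reached 111 ± 8.96 CPM in the ensheathing cluster OEC4, 111 ± 19.8 CPM in Astro3 and 86.4 ± 7.70 CPM in Astro1, against 16.6 CPM in MicroG1. Interneurons exceeded excitatory clusters by a log2 ratio of 1.02 ± 0.30, and astrocytes lay below interneurons at −0.76 ± 0.27.

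**Figure D4:**
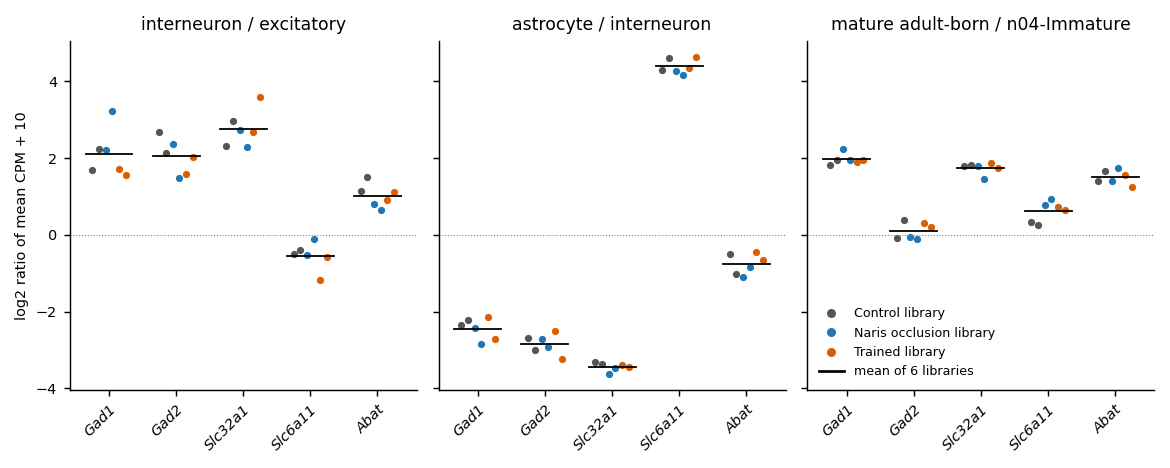
Log2 ratio of mean CPM + 10 for each of the 5 genes between cluster classes, with a point per library coloured by group, a line at the mean of 6 libraries and a dotted line at 0. Gad2 alone of the 5 has points on both sides of 0 between the mature adult-born clusters and n04-Immature, at a mean of 0.10, and Slc6a11 alone is higher in astrocytes than in interneurons, at 4.39.

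The patterns most like each member were found by correlating log2(mean CPM + 10) over the 40 clusters, among 9216 genes, as a description of clusters that share libraries and depth. Gad1 was closest to Synpr (r = 0.937), Psd (r = 0.933) and Gad2 (r = 0.932). Gad2 was closest to Gad1, Synpr (r = 0.919) and Rpp25 (r = 0.898). Slc32a1 was closest to Synpr (r = 0.947), Slitrk4 (r = 0.928) and Gad1 (r = 0.926). Slc6a11 followed the astrocyte water channel gene Aqp4 (r = 0.971), then Slc39a12 (r = 0.930) and Cldn10 (r = 0.928). Abat was closest to Ndn (r = 0.843), Aldh5a1 (r = 0.841), which encodes the enzyme that acts just after it in GABA breakdown, and Krt10 (r = 0.832). Within the 18 neuronal clusters, Gad1 and Gad2 correlated at 0.774 and Gad1 and Slc32a1 at 0.734.

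Of 31 other genes listed beside the members, called pathway genes here, 30 were in the table. The list covers transport, GABA degradation, glutamate supply and packaging, other vesicular and glycine transport, and synaptic vesicle partners. The transporters Slc6a13 (1174 ± 131 CPM) and Slc6a12 (93.8 ± 26.7 CPM) were highest in the mesenchymal cluster Mes1. Glul, which makes glutamine, was highest in OEC5 (3730.4 ± 317 CPM) and reached 3080 ± 199 CPM in Astro1. Slc18a2, the vesicular monoamine transporter, was highest in n18-EPL-IN (59.5 ± 24.4 CPM) and n05-PGC-2 (54.2 ± 17.7 CPM), the latter also the peak of Gad2 and Abat.

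Whether odour deprivation or training changed the GABA genes was tested within each cluster with edgeR's quasi-likelihood test across all genes, in the 34 clusters with at least 20 cells in every library. Gad1 was tested in 34 clusters, Slc6a11 in 30, Abat in 27, Gad2 in 26 and Slc32a1 in 22, which makes 139 tests in each comparison. Between Naris occlusion and Control no test passed an adjusted p of 0.05, where 0.0624% of all gene and cluster pairs did, and 24 had an unadjusted p under 0.05, beside 4.78% of all pairs. DESeq2 also called none, with 9 at an unadjusted p under 0.05, beside 0.678% of all pairs. Between Trained and Control none passed by either tool, beside 0.0931% of all pairs, and 8 had an unadjusted p under 0.05 by edgeR and 3 by DESeq2, beside 5.74% and 0.972% of all pairs. Between Trained and Naris occlusion 2 passed, 1.44% of the members' tests beside 0.178% of all pairs and 0.159% of the genes tested in the one cluster that held both, and 24 by edgeR and 13 by DESeq2 had an unadjusted p under 0.05, beside 7.26% and 1.52% of all pairs. With the replicate number as a further term 3 passed, Gad1 in MicroG2 being added. The same term also added Gad1 in MicroG2 between Naris occlusion and Control. Trained and occluded mice share no libraries, but each is compared with the same 2 control libraries.

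Both calls of the fit on group alone were in the mitral and tufted cluster n17-M/TC-3, excitatory neurons in which these genes were near background. Gad1 read 296 and 203 CPM in the Control libraries, 132 and 136 CPM under Naris occlusion, and 288 and 509 CPM in Trained replicates 1 and 2. Both Trained libraries stood above both occluded libraries and Trained replicate 2 was highest. The log2 fold change of Trained over Naris occlusion was 1.65 ± 0.29 (SE), with an adjusted p of 0.00254 by edgeR's quasi-likelihood test. Gad2 read 40.1 and 46.5 CPM in Control, 26.9 and 30.3 CPM under Naris occlusion, and 94.2 and 119 CPM in Trained. Its log2 fold change was 1.99 ± 0.45, with an adjusted p of 0.0476 by the same test. The groups did not overlap for Gad2 in this cluster, in the order occluded, Control, Trained. This order restates the values behind the call, and how many other genes showed it was not counted. Without Trained replicate 2 the adjusted p of Gad1 was 0.114 by that test, and the Gad2 call was lost without Naris occlusion replicate 1 (adjusted p = 0.222), Trained replicate 1 (0.129) or Trained replicate 2 (0.186). A group left with a single library was assumed to vary like the other groups in these fits. In cells of at least 1000 UMIs neither passed, and DESeq2 called Gad1 but not Gad2. The log2 fold changes in the fits on all 6 libraries or on the 4 compared were 1.62 to 2.09 for Gad1 and 1.96 to 1.99 for Gad2, and with 1 library left out 1.26 to 1.96 and 1.87 to 2.09. The summed interneuron markers of n17-M/TC-3 moved with them, at 493 and 372 CPM in Control, 336 and 303 CPM under Naris occlusion and 576 and 608 CPM in Trained, with all 9 markers above 0. The part of interneuron RNA in these calls was not tested.

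Gad1 was read lower under Naris occlusion than in Control across most of the tissue, without any call in the fit on group alone. Its estimate was below 0 in 32 of 34 clusters, with a median log2 fold change of −0.45, the lowest at −1.02 in n17-M/TC-3 and the highest at 0.29 in n10-GC-4. Both occluded libraries lay below both Control libraries in 22 of the 34 clusters, whereas 15.5% of all gene and cluster pairs of at least 20 CPM showed this, and the clusters share the same 4 libraries. The smallest adjusted p was 0.114, by edgeR's quasi-likelihood test in n17-M/TC-3. Leaving out 1 library at a time, 0 to 3 of the 139 member tests passed, all but 1 of them Gad1 in n17-M/TC-3, MicroG2, n13-AstrocyteLike or EC2, with 0 without Control replicate 1, 1 without Control replicate 2 or Naris occlusion replicate 2, 3 without Naris occlusion replicate 1 and 2 without either Trained library. In the microglia of MicroG2, Gad1 read 176 and 128 CPM in Control, 107 and 58.0 CPM under Naris occlusion and 158 and 142 CPM in Trained. With the replicate number, which divided the pools by sex, as a further term in edgeR's quasi-likelihood test, this difference passed at an adjusted p of 0.0318, beside 0.264 without it. In the granule cluster n03-GC-1 it read 619 and 619.9 CPM, then 529 and 446 CPM, then 640.1 and 628 CPM, and in n04-Immature 323 and 297 CPM, then 235 and 260.1 CPM, then 304 and 322 CPM. The lower values stood in both neuronal and nonneuronal clusters. The median log2 fold change was −0.28 over the 14 neuronal clusters tested and −0.48 over the 20 nonneuronal ones. In n07-GC-2 the groups overlapped, at 1047 and 982 CPM in Control and 1066 and 922 CPM under Naris occlusion.

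**Figure D5:**
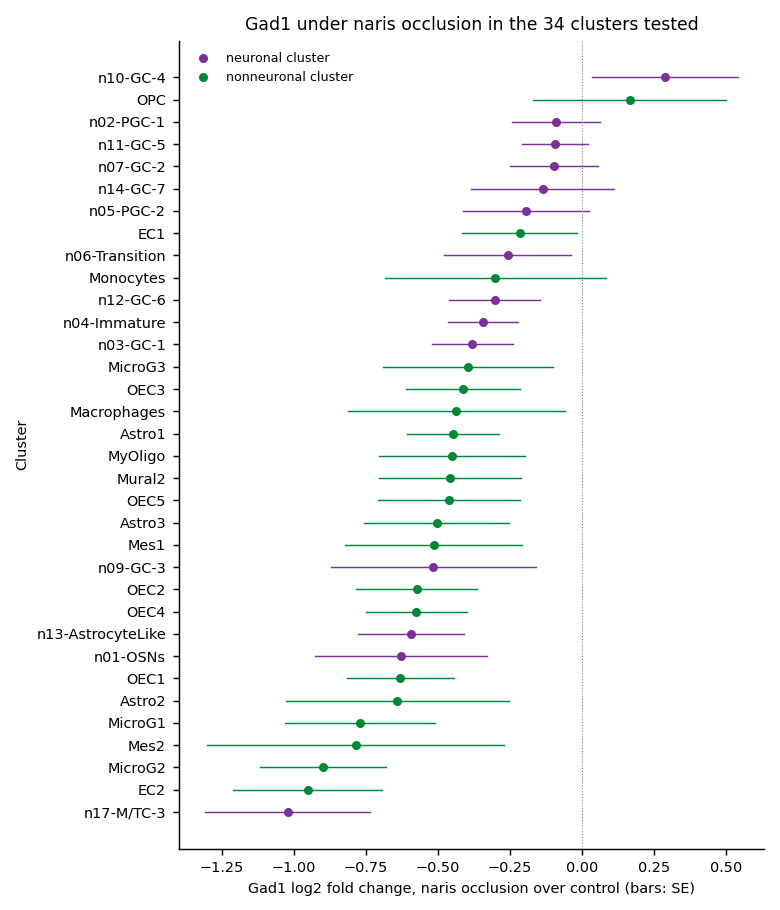
Log2 fold change of Gad1 under Naris occlusion over Control in each of the 34 clusters tested, ordered by size, with bars of 1 SE and neuronal and nonneuronal clusters in different colours. All but n10-GC-4 and OPC lie below 0, and none passed the adjusted threshold in the fit on group alone. The nonneuronal clusters run from −0.95 to 0.16 (median −0.48) and the neuronal ones from −1.02 to 0.29 (median −0.28).

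Pooled over the 19 nonneuronal clusters other than astrocytes, Gad1 was 160 and 130 CPM in Control, 111 and 86.8 CPM under Naris occlusion and 163 and 127 CPM in Trained. Pooled over the 12 interneuron clusters it was 1152 and 1124 CPM, then 1075 and 1001 CPM, then 1103 and 1165 CPM. In both pools the occluded libraries were the lowest of the 6. In the nonneuronal pool the same held for Gad2, at 23.0 and 18.1 CPM, and for Slc32a1, at 15.5 and 15.0 CPM. In the interneuron pool it held for neither Gad2 (298 and 270 CPM) nor Slc32a1 (391 and 274 CPM). The pooled levels were not tested. The 9 interneuron markers in the nonneuronal pool summed to 274 and 254 CPM in Control, 226 and 209 CPM under Naris occlusion and 332 and 237 CPM in Trained, all 9 being above 0, and in the interneuron pool to 2788 and 2761 CPM, 2999 and 2917 CPM, and 2726 and 3000.3 CPM. Interneurons gave 21.4% and 19.3% of the UMIs of the Control libraries, 19.3% and 19.2% under Naris occlusion and 21.9% and 19.2% in Trained. Mitochondrial UMIs made 11.9% and 11.6% of the Control libraries, 10.2% and 9.76% under Naris occlusion and 13.4% and 10.5% in Trained. This ranks the libraries in the same order as Gad1 in the nonneuronal pool, and a link between them was not tested. How much of the Gad1 reading in any cluster was RNA from other cells was not tested.

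The estimates of Gad2 and Slc32a1 also lay mostly below 0 under Naris occlusion, while those of Abat and Slc6a11 were mixed. Gad2 estimates under Naris occlusion were below 0 in 18 of 26 clusters (median log2 fold change −0.16), those of Slc32a1 in 17 of 22 (−0.27), those of Abat in 15 of 27 (−0.045) and those of Slc6a11 in 11 of 30 (0.058). In nonneuronal clusters Gad2 was below 0 in 9 of 13 (median −0.33) and Slc32a1 in 9 of 9 (−0.45). In neuronal clusters Gad2 was below 0 in 9 of 13 (−0.13) and Slc32a1 in 8 of 13 (−0.065). In Astro1, Slc6a11 read 2893 and 3012 CPM in Control, 3177 and 3158 CPM under Naris occlusion and 3389 and 3052 CPM in Trained, and none of these differences passed. In Astro2 it read 465 and 442 CPM, then 451 and 402 CPM, then 876 and 604 CPM, so both Trained libraries were the highest. The log2 fold change of Trained over Control there was 0.69 ± 0.25, with an adjusted p of 0.447 by edgeR's quasi-likelihood test. Against Naris occlusion it was 0.82 ± 0.25, with an adjusted p of 0.376 by the same test. Without Trained replicate 1 these log2 fold changes were 0.38 and 0.52. Under training, Gad1 estimates were above 0 in 18 of 34 clusters, with a median of 0.0036.

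Whether the response of a member differed between adult-born clusters was tested by interaction terms in 11 clusters over 7821 genes, with n04-Immature and n06-Transition among them. The fit had no term for the library, so the sums of a library in these clusters were taken as independent. None of the 55 member terms passed in either comparison, with smallest adjusted p of 0.379 for Naris occlusion and 0.931 for training by edgeR's quasi-likelihood test, and 6 and 2 terms had an unadjusted p under 0.05. Over all genes 0.036% and 0.00349% of such terms passed, and 5.22% and 4.31% had an unadjusted p under 0.05. Of the 30 other pathway genes, 28 were tested, in 514 gene and cluster pairs. The single call among them was Slc38a1, a glutamine transporter, in n17-M/TC-3, where it read 909 and 854 CPM in Control, 524 and 459 CPM under Naris occlusion and 582 and 799 CPM in Trained. Its log2 fold change of Naris occlusion over Control was −0.94 ± 0.22, with an adjusted p of 0.0385 by edgeR's quasi-likelihood test, where 0.501% of the genes tested in that cluster passed.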

How the data were processed

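Dissociated olfactory bulbs were profiled with the 10X Chromium 3′ v2 kit. The submitters' processing notes name Cell Ranger 2.0.0, Seurat 2.2.1 and the genome build mm10. The deposited table holds raw UMI counts of 18560 genes in 52549 barcodes, not normalized. The authors also deposited a cell table with the library, the cluster of each cell and the fraction of mitochondrial UMIs. A table of normalized values deposited by the authors was not used. Cluster names follow the deposited cell table, in which several Astro, OEC, MicroG and Mes clusters carry other numbers than in the study's own cluster list, which gives 51426 cells a cluster. Neuronal names come from a second annotation of 21746 neurons, which leaves out 755. The study's methods state that droplets holding different cell types had been taken out. Doublets were not called here. Libraries are numbered by the library column of the cell table. For the Trained libraries this number is the opposite of the one that starts the cell names, which bears on the replicate block and on which library is named, not on the groups.

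Counts were summed per library and cluster. CPM was computed on these sums. Log2 ratios used CPM + 10. Conditions were compared by edgeR 4.0.16 (R 4.3.3) quasi-likelihood tests with TMM scaling and filterByExpr, all 6 libraries in each fit, in clusters of at least 20 cells in every library, with Benjamini-Hochberg adjustment over all genes of a cluster and a threshold of 0.05. DESeq2 1.42.0 was an alternative. Cells were thinned to 500 UMIs by random draws without replacement, and intervals are exact Clopper-Pearson intervals at 95%. A correlation of patterns used genes of at least 50 CPM in a cluster. The tests were checked on simulated counts. Nothing in the labels says that libraries of a number share animals or a day, so they were not paired. By Xist and Ddx3y the number coincided with the sex of the pool, and a fit with it as a block was an alternative. Clusters share the same libraries. The p-values measure the spread between 2 pools of mice a group.

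The members were named by their role, and all were described. Members, pathway genes and marker lists were chosen with earlier results of these data known. Leaving out a library leaves its group with 1, whose spread is then taken from the other groups. The alternatives tried were another scaling, DESeq2, no filter, a replicate block, leaving out each library, cells of at least 1000 UMIs, only the libraries compared, mitochondrial UMIs left out, a pseudocount of 1, means of single cells, the control libraries alone, 1000 UMIs in thinning and another random draw. Levels of some pathway genes are not reported here.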

Additional observations from a re-analysis of the deposited data

Results flagged for a closer look

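The members were also read in barcodes that no comparison used. The 1123 barcodes without a cluster, of median depth 2327 UMIs, held Gad1 at 428.5 CPM (exact 95% interval 405 to 453), Gad2 at 108 CPM, Slc32a1 at 117 CPM, Slc6a11 at 563 CPM and Abat at 75.8 CPM. The values are given because they exceeded the limit that a count of 0 allows, 0.993 CPM, which does not set them apart from low readings such as the 129 CPM of Gad1 in the pooled nonneuronal clusters other than astrocytes. Slc6a11 was thus higher there than in any neuronal cluster, and Gad1 was above the 261 to 313 CPM of the sensory and excitatory clusters. The 755 neurons left out of the second annotation, of median depth 2213 UMIs, held Gad1 at 705 CPM (672 to 739), Gad2 at 178 CPM, Slc32a1 at 199 CPM, Slc6a11 at 249 CPM (229 to 269) and Abat at 61.6 CPM, against a limit of 1.24 CPM. Their Slc6a11 level exceeded that of all 18 neuronal clusters. Which cells these barcodes held was not tested.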

How the results depend on the processing

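The counts of member calls moved with the settings. Between Naris occlusion and Control the 0 calls became 1 without the filter on low counts, Gad1 in MicroG2, and ranged from 0 to 3 when 1 library was left out. Between Trained and Naris occlusion the 2 calls became 1 with DESeq2 size factors, with the DESeq2 test and with only the 4 libraries compared, 0 in cells of at least 1000 UMIs, and 2 to 4 when 1 library was left out, where without Trained replicate 2 both calls in n17-M/TC-3 were lost. Between Trained and Control there were 0 calls in every setting. The cause of these shifts was not tested.

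With the replicate number as a block, the calls were 1 between Naris occlusion and Control, 0 between Trained and Control and 3 between Trained and Naris occlusion, Gad1 in MicroG2 being added in both comparisons with the occluded libraries. Deviations of libraries with the same number correlated at 0.041 to 0.187 over 18 checks, each with 2 pairs, and the numbers were not taken as pairs.

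The Abat ratio of interneurons to excitatory clusters was 1.32 and the Slc6a11 ratio of mature clusters to n04-Immature was 0.30 in the control libraries alone. The astrocyte to interneuron ratio was −2.76 for Gad1 and −3.78 for Slc32a1 in cells of at least 1000 UMIs, and −3.13 for Gad2 and −3.76 for Slc32a1 with a pseudocount of 1. The Gad1 share of Gad1 and Gad2 UMIs in n06-Transition was 81.7% in cells of at least 1000 UMIs and 85.4% in the control libraries alone, and in n13-AstrocyteLike 78.6% in cells of at least 1000 UMIs. Of 387 values recomputed, 348 stayed on the same side of the threshold or within the spread between libraries. Another 21 counts, ratios and shares given above moved beyond it or, for counts, by over 1.5 times. Of the values of single genes in a cluster, 9 fell short of the threshold and 9 passed it only under the alternative. In all, 0 values changed sign beyond that spread. The Gad2 ratio of mature clusters to n04-Immature, 0.10 in the main setting, crossed 0 within it, to −0.0035 at the lowest. Members that did not pass the filter on low counts in a cluster were not tested there.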
